A study of Homo sapiens with 18 samples.

Results

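The integrated stress response genes driven by the transcription factor ATF4 were followed as a set of 34 members, chosen by name as the usual transcriptional answer to mitochondrial stress and matched on the gene symbols of the count table. All 34 were found among its 57500 genes, and all 34 passed the filter on low counts that left 16994 genes for testing. The 18 poly(A) RNA libraries come from IMR90, a line of human fetal lung fibroblasts, with 3 libraries in each of 6 groups. Prol cells were proliferating, and Sen (IR) cells were made senescent by X-ray irradiation. Sen (IR) + CCCP cells were irradiated and then lost their mitochondria, because the uncoupler CCCP triggers mitochondrial removal in the engineered IMR90 cells that the methods of the study describe. The last 3 groups were irradiated, CCCP-treated cells that were also given sodium acetate (Sen (IR) + CCCP + acetate, the acetate group), transfected with mitochondrial DNA (Sen (IR) + CCCP + mtDNA, the mtDNA group) or given both (Sen (IR) + CCCP + mtDNA + acetate, the combination group). The acetate, mtDNA and combination groups therefore share irradiation and CCCP with their control. By the methods of the study, acetate was given repeatedly after CCCP, while mtDNA was transfected late in the culture. Comparisons of acetate with mtDNA thus set a longer exposure against a shorter one. No group received acetate or mtDNA with its mitochondria in place, and the labels do not say whether the Prol and Sen (IR) libraries came from the engineered line or whether mock-transfected libraries exist. The study's captions describe replicates as independent experiments, and the labels do not tie the libraries of a group to separate cultures. The p-values measure the spread between the 3 libraries of a group.

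ATF4 is translated preferentially when kinases phosphorylate the translation factor eIF2. This happens when amino acids run short, when proteins misfold in the endoplasmic reticulum, when foreign RNA is sensed or when mitochondria fail. With partners such as CEBPG, the ATF4 protein binds C/EBP-ATF response elements and turns on genes for amino acid synthesis, amino acid import, tRNA handling, mitochondrial folate metabolism and, through DDIT3 and TRIB3, cell death and feedback. ATF4 protein and eIF2 phosphorylation were not measured in these libraries, and RNA levels of ATF4 need not follow its protein.

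Depth was 24624886 to 46224280 counts per library, and libraries of one group mostly resembled each other, with a chi-square per gene of 2.78 to 7.75 between replicates. In that comparison 2 libraries stood apart from their groups. They are Sen (IR) replicate 3, at 22.2 and 27.7 against its partners, and combination replicate 2, at 24.7 and 28.3. Results that rest on them are given without them where they change. Transcripts encoded by mtDNA made up 1.76 to 2.92% of the counts in Prol and Sen (IR) and 0.114 to 0.136% in Sen (IR) + CCCP. They made up 0.124 to 0.139% in the acetate group and 0.0463 to 0.0537% in the mtDNA group, which lay below Sen (IR) + CCCP. In the combination group replicate 2, which stood apart, was at 0.238%, and replicates 1 and 3 were at 0.0642 and 0.0626%. The 7 fibroblast markers were all expressed, but their summed TPM (the authors' length-corrected level, in which every library has the same total) was 15414 to 17463 in Prol, 9790 to 11785 in Sen (IR), and 5448 to 5630 in Sen (IR) + CCCP. The sum was 4893 to 5087 TPM in the mtDNA group, 3825 to 3953 in the acetate group and 3597 to 4007 in the combination group. The endothelial marker sum stayed at or under 0.398 TPM, the immune sum at or under 2.44 TPM and the epithelial sum at or under 4.97 TPM, and KRT5 and CD3E had at most 3 counts in every library. The part of the shifting fibroblast markers in the results on the members was not tested. In bulk RNA, fewer cells of a kind and less RNA per cell cannot be told apart.

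Reference promoter windows, reaching from 250 bases before to 50 bases after the RefSeq start sites (GRCh38.p14), were available for 26 members, in 44 windows. The C/EBP-ATF response element was searched on both strands as TGATGNAA and in its stricter form TGATGCAA, which the looser form includes. TGATGNAA occurred in the windows of 8 of the 26 members (30.8%), namely ASNS, CEBPG, CHAC1, MTHFD1L, SLC1A4, SLC1A5, SLC3A2 and SLC7A1, beside 4.46% of the 27305 genes with a window. TGATGCAA occurred in 5 of the 26 (19.2%), namely CEBPG, CHAC1, MTHFD1L, SLC1A4 and SLC1A5, beside 1.08% of all genes. Counted by window, TGATGNAA was in 10 of the 44 member windows and in 3.62% of the 35116 windows of all genes. TGATGCAA was in 7 of the 44 and in 0.866% of all windows. The MTHFD1L windows overlap and share the same match. No reference window was matched for NUPR1, PSPH, SLC7A11, GPT2, ALDH1L2, PYCR1, EIF4EBP1 and SHMT2. Windows of 6 of the members are printed because these genes cover a regulator, a glutathione-degrading enzyme, an amino acid synthetase and transporters whose changes are described further on. Each runs 5′ to 3′ on the gene's own strand, with the match in capitals (TGATGNAA or its reverse complement), and a match is a stretch of letters and not a measured binding site. Positions refer to the RefSeq start site of the printed window, which need not be the gene's outermost start. The windows of SLC1A5 and SLC3A2 lie well inside the GENCODE spans of these genes (chr19:46774883-46788594 and chr11:62856004-62888880). The match began 68 bases before the start site in ASNS (chr7:97872359-97872658, minus strand), 209 before it in CHAC1 (chr15:40953221-40953520, plus strand), 42 before it in CEBPG (chr19:33373863-33374162, plus strand), 97 before it in SLC1A5 (chr19:46784765-46785064, minus strand), 7 before it in SLC1A4 (chr2:64989149-64989448, plus strand) and 37 after it in SLC3A2 (chr11:62881449-62881748, plus strand).
ASNS: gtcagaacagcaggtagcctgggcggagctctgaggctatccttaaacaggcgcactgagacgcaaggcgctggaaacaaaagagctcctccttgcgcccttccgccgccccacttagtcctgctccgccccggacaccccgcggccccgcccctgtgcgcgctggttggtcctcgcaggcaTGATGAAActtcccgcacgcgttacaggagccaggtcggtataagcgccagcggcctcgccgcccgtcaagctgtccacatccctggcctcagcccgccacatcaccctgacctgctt
CHAC1: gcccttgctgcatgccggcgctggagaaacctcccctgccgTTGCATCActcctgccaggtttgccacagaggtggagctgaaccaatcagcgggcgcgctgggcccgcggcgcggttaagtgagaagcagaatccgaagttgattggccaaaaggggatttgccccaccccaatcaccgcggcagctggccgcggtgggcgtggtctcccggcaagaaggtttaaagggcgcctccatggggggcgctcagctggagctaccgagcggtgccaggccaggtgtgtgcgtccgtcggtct
CEBPG: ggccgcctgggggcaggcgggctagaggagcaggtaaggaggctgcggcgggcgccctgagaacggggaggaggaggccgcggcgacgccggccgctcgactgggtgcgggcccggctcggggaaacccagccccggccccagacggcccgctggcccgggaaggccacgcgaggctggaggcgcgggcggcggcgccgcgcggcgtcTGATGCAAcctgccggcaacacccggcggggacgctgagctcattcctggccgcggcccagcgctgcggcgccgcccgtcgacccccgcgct
SLC1A5: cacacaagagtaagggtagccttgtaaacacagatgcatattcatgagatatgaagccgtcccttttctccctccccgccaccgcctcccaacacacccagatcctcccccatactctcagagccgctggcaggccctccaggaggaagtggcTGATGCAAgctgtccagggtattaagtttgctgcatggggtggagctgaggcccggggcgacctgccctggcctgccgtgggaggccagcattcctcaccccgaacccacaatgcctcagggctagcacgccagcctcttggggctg
SLC1A4: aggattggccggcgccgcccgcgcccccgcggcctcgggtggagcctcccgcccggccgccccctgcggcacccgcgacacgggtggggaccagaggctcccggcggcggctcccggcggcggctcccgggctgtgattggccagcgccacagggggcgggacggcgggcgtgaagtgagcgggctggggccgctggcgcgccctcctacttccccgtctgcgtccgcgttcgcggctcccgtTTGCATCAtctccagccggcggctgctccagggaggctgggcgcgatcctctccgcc
SLC3A2: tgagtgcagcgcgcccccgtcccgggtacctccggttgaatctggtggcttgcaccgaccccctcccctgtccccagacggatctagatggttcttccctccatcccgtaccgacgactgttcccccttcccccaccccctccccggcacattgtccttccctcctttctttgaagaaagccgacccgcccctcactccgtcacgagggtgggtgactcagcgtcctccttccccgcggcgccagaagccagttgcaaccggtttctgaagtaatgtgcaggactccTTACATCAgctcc

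As a whole, the members took a larger share of the TPM total once the mitochondria were gone. Their summed mean level was 3079 TPM in Prol, 3228 in Sen (IR), 6727 in Sen (IR) + CCCP, 8690 in the acetate group, 8935 in the mtDNA group and 9722 in the combination group. The near-equal sums of Prol and Sen (IR) hid opposite moves, since STC2, which encodes a secreted glycoprotein, and SLC7A11, the cystine importer, were higher in Sen (IR). Without these 2 genes the sums were 2425 TPM in Prol, 1521 in Sen (IR), 5233 in Sen (IR) + CCCP, 6765 with acetate, 7046 with mtDNA and 7385 with both. On this per-length scale the most abundant members in Sen (IR) + CCCP were ATF4 (1299 TPM), STC2 (1212), PSAT1 (549) and PPP1R15A (539.8), and the least abundant were CBS (2.71), CTH (9.11) and PCK2 (13.9). In Sen (IR), by contrast, PHGDH stood at 8.79 TPM, TRIB3 at 6.79, PCK2 at 4.60 and CBS at 0.643. Since every library has the same TPM total, a gene's TPM also rises when other genes fall. From Prol to Sen (IR) + CCCP, ATF4 went from 378 to 1299 TPM but from 252 to 610 CPM (scaled counts, defined below). ALDH1L2 went from 42.1 TPM in Sen (IR) to 58.4 in Sen (IR) + CCCP, but from 89.8 to 92.8 CPM. By the tests on counts, 17 members were higher in Sen (IR) + CCCP than in Prol and 15 lower, beside 35.1% of all tested genes higher and 34.1% lower. How much of the rise in the sums reflects falls in other genes was not tested.

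**Figure D1:**
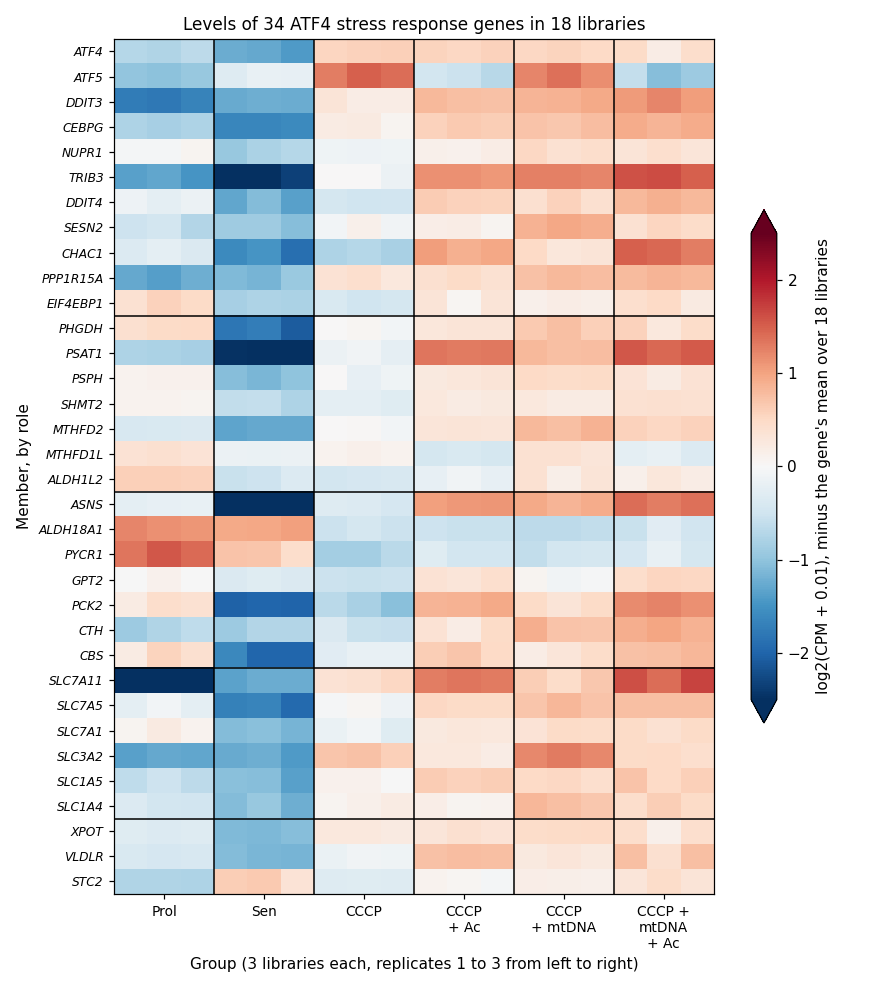
Heat map of the 34 members (rows, by role) in the 18 libraries (columns, 3 per group), as log2(CPM + 0.01) minus each gene's mean over the 18 libraries, with red above and blue below that mean. Most rows are lowest in Sen (IR) and highest in the mtDNA, acetate or combination group, while ALDH18A1 and PYCR1 are highest in Prol and ATF5 is highest with CCCP alone or with mtDNA in the absence of acetate.

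Senescence lowered most of the set. In Sen (IR) against Prol, 27 of the 34 members were lower and 5 higher, while 29.9% of all 16994 tested genes were lower and 26.7% higher, and the members' median log2 fold change was -0.79 beside -0.01 over all tested genes. All calls are edgeR quasi-likelihood tests with Benjamini-Hochberg adjusted p under 0.05 over all tested genes. The largest falls belonged to amino acid enzymes: ASNS, which makes asparagine, changed by -2.55 (SE 0.0594) on the log2 scale, PCK2, the mitochondrial form of PEP carboxykinase, by -2.35 (SE 0.0909), and PHGDH, which opens serine synthesis from glycolysis, by -2.33 (SE 0.0792). The 7 serine and folate enzymes were all lower (median -1.06), and so were 6 of the 7 other amino acid enzymes (median -0.81). CTH at -0.05 was not called. Among the 11 regulators 8 were lower and 3 higher, and among the 6 transporters 4 were lower and 1 higher. The largest rises were SLC7A11 at 1.33 (SE 0.0703), STC2 at 1.30 (SE 0.0659) and ATF5, a transcription factor related to ATF4, at 0.74 (SE 0.0990). DDIT3 (also called CHOP, a factor of stress-induced cell death) was higher by 0.49 and PPP1R15A, the subunit that directs a phosphatase back to eIF2, by 0.24, and SLC3A2 was not called at 0.03.

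Most of the set was higher in senescent cells cleared of mitochondria with CCCP. No group was given CCCP and kept its mitochondria, so CCCP itself and the loss of mitochondria cannot be told apart. In Sen (IR) + CCCP against Sen (IR), 29 members were higher, 4 lower and 1 not called, beside 34% of all tested genes higher and 31.3% lower, with a median log2 fold change of 1.19 for the members and 0.03 for all tested genes. All 11 regulators (median 1.40) and all 6 transporters (median 1.46) rose, as did 6 of the 7 serine and folate enzymes (median 0.98). By the place where the enzymes work, all 6 cytosolic enzymes rose (median 1.74), whereas of the 8 mitochondrial enzymes 4 rose, 3 fell and 1 was not called (median 0.15). The largest rises were TRIB3 at 2.48 (SE 0.0749, adjusted p = 6.05e-17), PSAT1 at 2.47 (SE 0.0702, adjusted p = 2.02e-17) and ASNS at 2.40 (SE 0.0591, adjusted p = 2.44e-18), and the largest falls were ALDH18A1 at -1.48 (SE 0.0572, adjusted p = 2.22e-15), PYCR1 at -1.41 (SE 0.0905, adjusted p = 7.79e-12) and STC2 at -0.87 (SE 0.0653, adjusted p = 1.08e-10). The cell cycle genes MKI67, CCNA2 and LMNB1 were called higher in this comparison too, as was the cell cycle inhibitor CDKN1A. MKI67 measured 58.8, 60.2 and 58.3 CPM in Prol, 13.8, 14.4 and 17.8 in Sen (IR) and 28.9, 32.4 and 30.0 in Sen (IR) + CCCP. CCNA2 measured 28.2, 33.3 and 32.5 CPM in Prol, 20.6, 19.1 and 18.6 in Sen (IR) and 40.4, 45.7 and 43.2 in Sen (IR) + CCCP. Their part in the members' rise was not tested. The same 3 Sen (IR) libraries enter this comparison and the one with Prol with opposite signs, so the 2 are not independent. Chance variation in Sen (IR) moves them in opposite directions. Without Sen (IR) replicate 3 the counts were 29 higher and 4 lower with a median of 1.14.

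**Figure D2:**
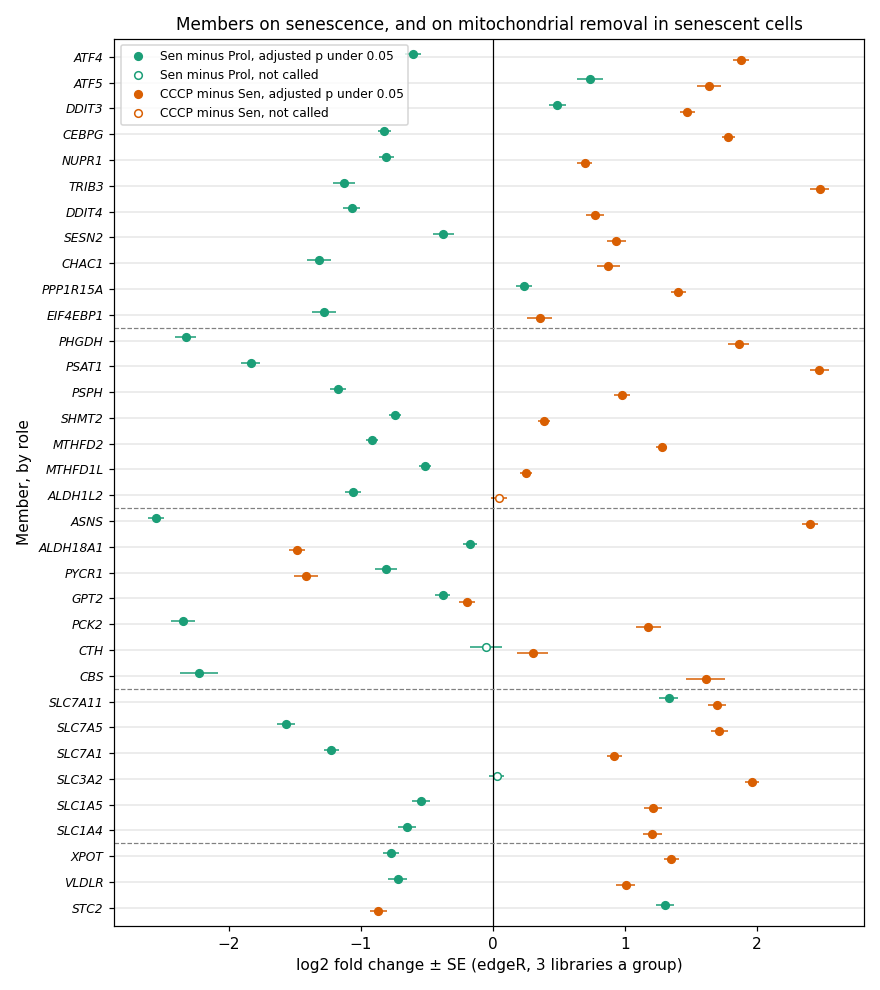
Log2 fold change with its standard error for each of the 34 members, in Sen (IR) minus Prol (green) and Sen (IR) + CCCP minus Sen (IR) (orange), filled where the adjusted p is under 0.05. Most green points lie left of 0 and most orange points right of it, and the 2 proline enzymes ALDH18A1 and PYCR1 lie left of 0 in both.

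The regulators showed this rise library by library, in CPM (counts scaled to a common library total with TMM factors, comparable between libraries for 1 gene). ATF4 itself measured 252, 244 and 261 CPM in Prol, 173, 169 and 155 in Sen (IR) and 596, 613 and 621 in Sen (IR) + CCCP. Its 3 Sen (IR) libraries were the lowest of the 9, and its 3 Sen (IR) + CCCP libraries the highest, with a change of 1.88 (SE 0.0623) from Sen (IR). CEBPG, the dimer partner of ATF4, measured 56.6, 54.5 and 56.7 CPM in Prol, 31.2, 31.3 and 32.3 in Sen (IR) and 112, 113 and 102 in Sen (IR) + CCCP, an order like that of ATF4. TRIB3, a pseudokinase that restrains ATF4, measured 12.9, 13.5 and 11.9 CPM in Prol, 5.45, 5.49 and 6.61 in Sen (IR) and 33.5, 33.5 and 30.0 in Sen (IR) + CCCP, so that every CCCP library was above every Prol library. DDIT3 rose at each step, from 16.0, 15.6 and 17.0 CPM in Prol to 22.5, 23.3 and 22.7 in Sen (IR) and 67.2, 61.2 and 61.3 in Sen (IR) + CCCP. ATF5 did the same, with 10.3, 9.996 and 10.6 CPM in Prol, 16.2, 17.9 and 17.5 in Sen (IR) and 49.3, 57.3 and 53.5 in Sen (IR) + CCCP. PPP1R15A measured 100.3, 94.0 and 106 CPM in Prol, 115, 109.9 and 129 in Sen (IR) and 314, 327 and 295 in Sen (IR) + CCCP, again without overlap between the groups. CHAC1, an enzyme that degrades glutathione, measured 23.7, 25.3 and 23.4 CPM in Prol, 10.05, 10.8 and 8.13 in Sen (IR) and 17.6, 18.4 and 17.2 in Sen (IR) + CCCP, and thus stayed under its Prol level in all 3 CCCP libraries. The remaining regulators rose as well. NUPR1, a small stress-induced chromatin protein, went from 38.2 ± 3.13 to 61.8 ± 0.513 CPM (mean ± SD, n = 3), and DDIT4 (REDD1, an inhibitor of the growth kinase mTORC1) from 21.5 ± 2.28 to 36.6 ± 0.555. SESN2 (a leucine-sensing mTORC1 inhibitor) went from 21.0 ± 1.38 to 40.1 ± 3.57, and EIF4EBP1, a repressor of cap-dependent translation, from 6.98 ± 0.122 to 8.92 ± 0.388.

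The enzymes of serine synthesis fell with senescence and rose again after CCCP. PHGDH measured 59.8, 63.4 and 63.7 CPM in Prol, 12.9, 13.6 and 10.7 in Sen (IR) and 45.4, 46.7 and 43.3 in Sen (IR) + CCCP. PSAT1, the aminotransferase of the next step, measured 147, 144 and 141 CPM in Prol, 45.1, 41.4 and 34.2 in Sen (IR) and 226, 234 and 213 in Sen (IR) + CCCP. After CCCP PSAT1 thus lay above Prol in every library and PHGDH below it. PSPH, the phosphatase that completes serine, went from 15.9 ± 0.650 to 31.3 ± 2.35 CPM against 35.9 ± 0.335 in Prol. MTHFD2, a mitochondrial folate enzyme, measured 157, 157 and 162 CPM in Prol, 82.6, 85.0 and 84.8 in Sen (IR) and 207, 209 and 197 in Sen (IR) + CCCP, with all CCCP libraries highest. The other enzymes of mitochondrial folate metabolism had smaller changes. SHMT2, which splits serine into glycine and a folate-bound carbon, rose by 0.39 to 77.2 ± 1.499 CPM, and MTHFD1L, which releases formate, rose by 0.25 to 62.2 ± 1.22 CPM. ALDH1L2, which oxidizes folate-bound carbon to carbon dioxide, was the member not called, at 0.05 (adjusted p = 0.530), with 89.8 ± 7.61 CPM in Sen (IR) and 92.8 ± 2.49 in Sen (IR) + CCCP.

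The other amino acid enzymes split. ASNS measured 113, 117 and 118 CPM in Prol, 21.2, 20.3 and 17.9 in Sen (IR) and 108, 106 and 100.3 in Sen (IR) + CCCP, which left every CCCP library below every Prol library. PCK2 measured 22.3, 26.2 and 25.4 CPM in Prol, 4.79, 4.91 and 4.82 in Sen (IR) and 12.2, 11.1 and 9.40 in Sen (IR) + CCCP, a partial return. CBS, which starts the conversion of homocysteine to cysteine, measured 4.58, 5.89 and 5.25 CPM in Prol, 1.29, 0.998 and 0.999 in Sen (IR) and 3.29, 3.51 and 3.48 in Sen (IR) + CCCP. CBS is uncertain, since reads can be split with its near-identical copy CBSL, which stood at 0.251, 0.328 and 0.181 CPM in Sen (IR) + CCCP. CTH, the next enzyme of that route, rose by 0.30 to 4.10 ± 0.334 CPM, a call that was lost without Sen (IR) replicate 1 or without Sen (IR) + CCCP replicate 1 (highest adjusted p = 0.133). The enzymes of proline synthesis went the other way. ALDH18A1, which makes the precursor, measured 141, 133 and 131 CPM in Prol, 117, 118 and 124 in Sen (IR) and 41.9, 44.8 and 41.5 in Sen (IR) + CCCP. PYCR1, which makes proline from that precursor in mitochondria, measured 41.3, 47.7 and 43.5 CPM in Prol, 26.8, 26.5 and 22.2 in Sen (IR) and 9.12, 9.09 and 10.3 in Sen (IR) + CCCP. Both therefore fell in every library of the depleted cells. GPT2, the mitochondrial alanine aminotransferase, fell by 0.19 to 18.9 ± 0.168 CPM.

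Amino acid transporters rose without exception. SLC7A11 measured 64.5, 58.9 and 63.0 CPM in Prol, 149, 161 and 160.3 in Sen (IR) and 483, 499.6 and 542 in Sen (IR) + CCCP, the only transporter that rose at both steps. SLC3A2, the heavy chain shared by SLC7A11 and SLC7A5, measured 69.3, 73.1 and 72.0 CPM in Prol, 74.7, 76.9 and 67.0 in Sen (IR) and 286, 295 and 271 in Sen (IR) + CCCP, not called at the first step and higher at the second. SLC7A5, a leucine transporter, measured 127, 144 and 128 CPM in Prol, 47.0, 48.2 and 39.3 in Sen (IR) and 148, 156 and 139 in Sen (IR) + CCCP, so that its Prol and CCCP libraries overlapped. SLC1A5, a glutamine transporter, measured 133, 143 and 131 CPM in Prol, 100.1, 98.4 and 80.6 in Sen (IR) and 221, 222 and 205 in Sen (IR) + CCCP. SLC1A4, a transporter of serine and alanine, measured 27.7, 25.6 and 25.2 CPM in Prol, 16.5, 18.3 and 15.2 in Sen (IR) and 36.7, 38.5 and 40.3 in Sen (IR) + CCCP. In both, the 3 CCCP libraries were above all others of these 3 groups. SLC7A1, which imports arginine and lysine, went from 46.7 ± 1.98 to 88.3 ± 6.98 CPM. Of the remaining members, XPOT, which exports tRNAs from the nucleus, measured 264, 255 and 262 CPM in Prol, 151, 149.7 and 156 in Sen (IR) and 393, 393 and 381 in Sen (IR) + CCCP. VLDLR, a lipoprotein receptor, measured 37.0, 35.8 and 36.4 CPM in Prol, 22.8, 21.8 and 21.7 in Sen (IR) and 43.2, 45.5 and 44.5 in Sen (IR) + CCCP. Both were lowest in Sen (IR) and highest after CCCP. STC2 went the other way, from 2529 ± 300.1 CPM in Sen (IR) to 1386 ± 7.63 after CCCP, against 1024 ± 8.73 in Prol.

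Set directly against Prol, the cells without mitochondria held some roles above and others below the proliferating level. Of the 34 members, 17 were higher in Sen (IR) + CCCP than in Prol and 15 lower, with a median of 0.20, beside 35.1% of all tested genes higher and 34.1% lower. Higher were 7 of the 11 regulators (median 0.96), 5 of the 6 transporters (median 0.61) and XPOT, VLDLR and STC2. Lower were 6 of the 7 other amino acid enzymes (median -0.61) and 5 of the 7 serine and folate enzymes, and, by place, 7 of the 8 mitochondrial enzymes (median -0.79). The largest rises over Prol were SLC7A11 at 3.03 (SE 0.0734), ATF5 at 2.37 (SE 0.0941) and SLC3A2 at 1.99 (SE 0.0548), and the largest falls were PYCR1 at -2.22 (SE 0.0893), ALDH18A1 at -1.66 (SE 0.0573) and PCK2 at -1.17 (SE 0.0811). The small calls of ASNS (-0.15) and SLC7A5 (0.15) were lost when 1 of several libraries was left out, among them Prol replicate 3 for both, with highest adjusted p-values of 0.0651 and 0.230.

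Most of the set was higher still with sodium acetate, which cells turn into acetyl-CoA. No group is labelled as given another sodium salt, so acetyl-CoA supply and the salt load cannot be told apart. Against Sen (IR) + CCCP, 25 members were higher in the acetate group, 3 lower and 6 not called, beside 28.8% of all tested genes higher and 28.3% lower, with medians of 0.44 for the members and 0.01 for all genes. CHAC1 at 1.73 (SE 0.0785, adjusted p = 4.80e-14), PCK2 at 1.71 (SE 0.0790, adjusted p = 6.63e-14) and PSAT1 at 1.47 (SE 0.0657, adjusted p = 3.90e-14) rose most. ATF5 at -1.96 (SE 0.0891, adjusted p = 5.19e-14), MTHFD1L at -0.52 (SE 0.0461, adjusted p = 2.59e-09) and SLC3A2 at -0.44 (SE 0.0521, adjusted p = 2.44e-07) were the members that fell. ATF4 RNA was not called, at -0.01 (SE 0.0599, adjusted p = 0.868), and neither were SESN2, PPP1R15A, ALDH18A1, SLC1A4 and XPOT. All 6 cytosolic enzymes (median 0.83) and 6 of the 8 mitochondrial ones (median 0.35) rose. The cell cycle genes MKI67 and CCNA2, which were higher after CCCP, fell with acetate, at -3.23 and -2.46. Their part in the members' changes was not tested.

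Most of the set was higher with transfected mtDNA too, against a much smaller background of change. No group is labelled as given transfection reagent alone or other DNA. The mtDNA itself and the act of transfection therefore cannot be told apart. In the mtDNA group 30 members were higher than in Sen (IR) + CCCP, 0 lower and 4 not called, beside 10.7% of all tested genes higher and 7.40% lower, with a median of 0.57 for the members and 0.00 for all genes. The count of 0 lower members was the same by DESeq2, and 1 member was lower at an unadjusted p under 0.05 in edgeR. TRIB3 at 1.28 (SE 0.0605, adjusted p = 3.84e-12), CTH at 1.27 (SE 0.105, adjusted p = 1.17e-08) and ASNS at 1.27 (SE 0.0535, adjusted p = 1.14e-12) rose most. All 7 serine and folate enzymes rose (median 0.67), as did 9 of the 11 regulators (median 0.60), 5 of the 6 transporters (median 0.58) and 6 of the 7 other amino acid enzymes (median 0.54). The members not called were ATF4 at -0.04, ATF5 at -0.13, ALDH18A1 at -0.14 and SLC7A11 at 0.16. The acetate and mtDNA comparisons use the same 3 Sen (IR) + CCCP libraries, so their values are set side by side and not correlated. The call of PYCR1 (0.28) was lost without Sen (IR) + CCCP replicate 1 or 2 or without mtDNA replicate 2 or 3 (highest adjusted p = 0.132).

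**Figure D3:**
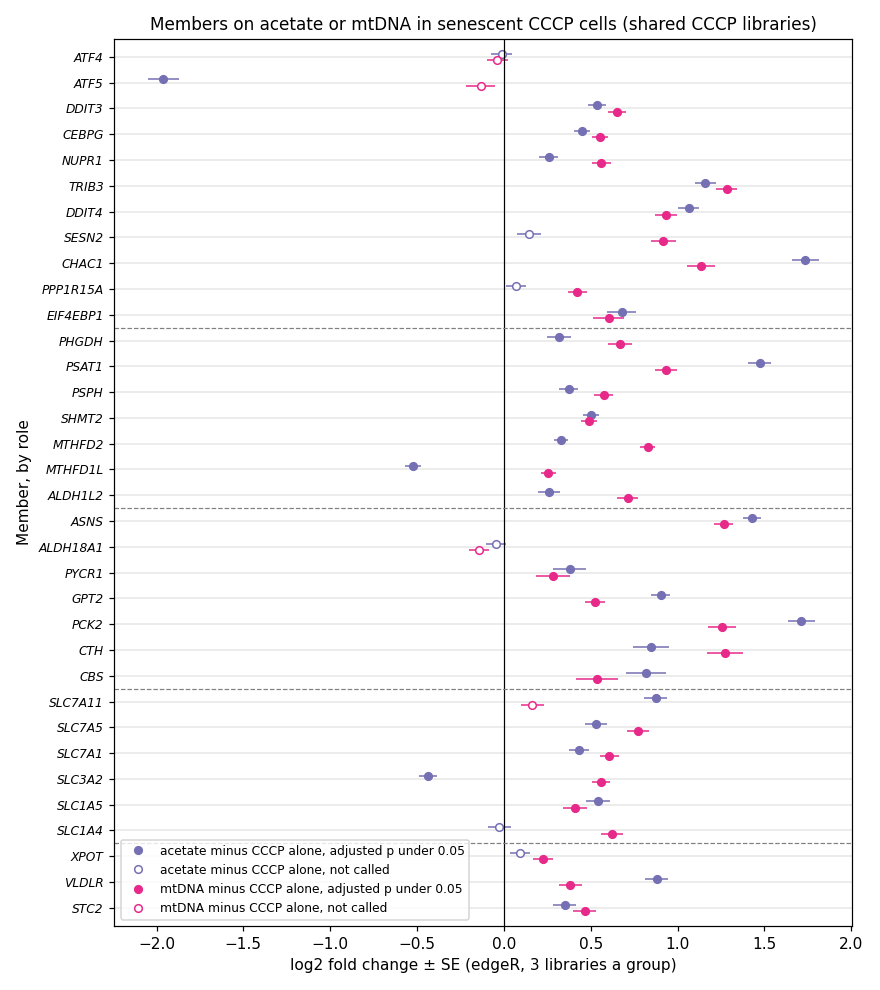
Log2 fold change with its standard error for each member in the acetate group (purple) and the mtDNA group (pink), each minus the same 3 Sen (IR) + CCCP libraries, filled where the adjusted p is under 0.05. ATF5, MTHFD1L and SLC3A2 lie left of 0 with acetate, and no mtDNA point that is filled lies left of 0.

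With both given, members such as CHAC1, PCK2 and ASNS reached the highest mean levels of the 6 groups. Against Sen (IR) + CCCP, 28 members were higher in the combination group and 4 lower, beside 30.3% of all tested genes higher and 31.4% lower, with medians of 0.64 for the members and -0.04 for all genes. The largest rises were CHAC1 at 2.17 (SE 0.0790), PCK2 at 2.01 (SE 0.0795) and ASNS at 1.71 (SE 0.0540), and the largest falls were ATF5 at -2.22 (SE 0.0929), MTHFD1L at -0.36 (SE 0.0464) and SLC3A2 at -0.20 (SE 0.0520). ATF4 was the fourth that was lower, at -0.19, a call that was lost without combination replicate 2 or without Sen (IR) + CCCP replicate 2 or 3 (highest adjusted p = 0.134). Adding mtDNA to acetate, 21 members were higher than in the acetate group, 0 lower and 13 not called (median 0.22), beside 6.57% of all tested genes higher and 6.0% lower. Here edgeR gave 2 members lower at an unadjusted p under 0.05 and DESeq2 called 0. CTH at 0.57 (SE 0.0962), TRIB3 at 0.45 (SE 0.0574) and CHAC1 at 0.43 (SE 0.0722) rose most. With each of the 6 libraries left out in turn 16 of the 21 calls held, the exceptions being NUPR1, SHMT2, MTHFD1L, SLC7A11 and SLC7A1. Adding acetate to mtDNA split the set, with 16 members higher and 10 lower than in the mtDNA group (median 0.15), beside 27.4% of all tested genes higher and 29.9% lower. CHAC1 at 1.04 (SE 0.0747), SLC7A11 at 0.98 (SE 0.0673) and PCK2 at 0.76 (SE 0.0743) rose most, and ATF5 at -2.09 (SE 0.0935), SLC3A2 at -0.76 (SE 0.0522) and MTHFD1L at -0.62 (SE 0.0465) fell most. Without combination replicate 2 only 6 of these members were lower, the calls of ATF4, PHGDH, PSPH and XPOT being lost.

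The values in the single libraries show how unlike the regulators were. ATF4 was not called with either treatment alone, with 608, 593 and 612 CPM in the acetate group, 593, 604 and 584 in the mtDNA group and 577, 470.3 and 561 in the combination group, where replicate 2 was the low library. ATF5 was low wherever acetate was present, with 14.8, 14.0 and 12.6 CPM in the acetate group and 13.4, 9.67 and 10.9 in the combination group against 47.4, 52.8 and 45.8 in the mtDNA group. The acetate and mtDNA libraries of ATF5 did not overlap, and exons of ATF5 overlap those of NUP62 and IL4I1 on the opposite strand. NUP62 changed by -0.24 with acetate, and IL4I1 by -1.82, which was not called and rests on at most 0.614 CPM in any library. DDIT3 rose with either treatment, with 94.6, 90.7 and 90.0 CPM in the acetate group, 96.5, 98.0 and 103 in the mtDNA group and 112, 125 and 111 in the combination group. TRIB3 did likewise, with 73.3, 73.6 and 70.4 CPM in the acetate group, 79.2, 80.0 and 77.3 in the mtDNA group and 101, 103 and 93.2 in the combination group. CEBPG measured 145, 152 and 149 CPM in the acetate group, 159, 155 and 166 in the mtDNA group and 185, 176 and 183 in the combination group, and was highest in the combination libraries, as were DDIT3 and TRIB3. CHAC1 responded more to acetate, with 62.5, 55.7 and 59.1 CPM in the acetate group, 42.3, 36.8 and 37.6 in the mtDNA group and 84.8, 81.7 and 72.7 in the combination group, without overlap. PPP1R15A responded to mtDNA, with 324, 339.8 and 318 CPM in the acetate group, 409, 428 and 417 in the mtDNA group and 426, 443 and 429 in the combination group. SESN2 was highest with mtDNA alone, at 75.9 ± 2.81 CPM against 44.4 ± 1.72 with acetate and 55.4 ± 3.00 with both. NUPR1 followed the same order at 91.2 ± 4.25, 73.8 ± 2.07 and 85.0 ± 3.92 CPM, though its mtDNA and combination libraries overlapped. DDIT4 stood at 76.6 ± 2.27 CPM with acetate, 69.9 ± 5.20 with mtDNA and 90.7 ± 2.63 with both. EIF4EBP1 stood at 14.3 ± 1.47, 13.5 ± 0.303 and 15.8 ± 1.49.

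**Figure D4:**
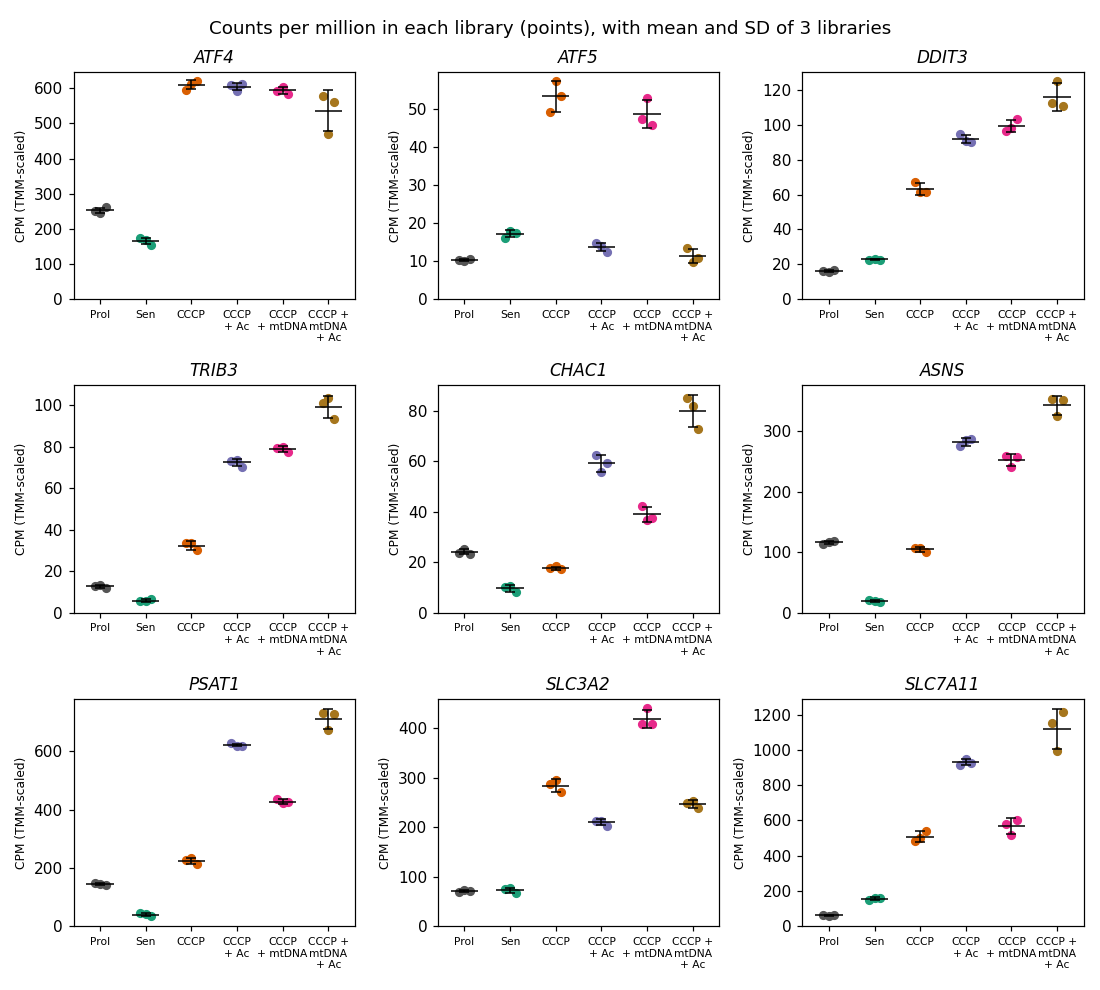
CPM of 9 members in each of the 18 libraries (points), with the mean and SD of the 3 libraries of a group (black). ATF4 is level over the 4 CCCP groups apart from a low combination library, ATF5 and SLC3A2 are lower in both groups with acetate, and ASNS, TRIB3, CHAC1 and PSAT1 are highest in the combination group.

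The enzymes were also unlike each other. PSAT1 was highest where acetate was present, with 628, 619 and 620.3 CPM in the acetate group, 436, 422 and 426 in the mtDNA group and 733, 673 and 728 in the combination group. PHGDH measured 55.2, 56.7 and 56.7 CPM in the acetate group, 71.4, 76.0 and 68.3 in the mtDNA group and 67.9, 54.7 and 62.3 in the combination group, highest with mtDNA alone. MTHFD2 was highest with mtDNA alone as well, with 256, 259.6 and 255 CPM in the acetate group, 362, 349.8 and 376 in the mtDNA group and 308, 295 and 306 in the combination group. PSPH stood at 40.5 ± 1.03, 46.6 ± 0.536 and 41.4 ± 2.33 CPM in the acetate, mtDNA and combination groups, and SHMT2 at 109 ± 2.72, 108 ± 2.27 and 122 ± 0.869. In the same order ALDH1L2 stood at 111 ± 4.74, 152 ± 13.1 and 143 ± 7.90 CPM, and MTHFD1L at 43.3 ± 0.855, 74.3 ± 2.24 and 48.4 ± 2.82. MTHFD1L was the folate enzyme with acetate levels under those of CCCP alone. ASNS measured 275, 284 and 287 CPM in the acetate group, 259, 241 and 257 in the mtDNA group and 352, 324 and 351 in the combination group, and each of these libraries was above every Prol library. PCK2 measured 34.9, 35.3 and 37.5 CPM in the acetate group, 27.1, 24.2 and 27.0 in the mtDNA group and 44.1, 46.0 and 42.7 in the combination group. CBS measured 6.08, 6.45 and 5.62 CPM in the acetate group, 4.52, 4.89 and 5.49 in the mtDNA group and 6.65, 6.72 and 7.11 in the combination group. Both were highest in the combination group, as was GPT2 at 38.7 ± 1.56 CPM against 35.2 ± 1.23 with acetate and 27.1 ± 1.55 with mtDNA. CTH reached 10.99 ± 0.462 with both against 7.40 ± 0.737 and 9.94 ± 0.812. The proline enzymes stayed low, with 42.1, 40.9 and 41.1 CPM of ALDH18A1 in the acetate group, 38.2, 38.3 and 39.4 in the mtDNA group and 41.2, 50.04 and 43.7 in the combination group. PYCR1 measured 13.3, 11.9 and 11.8 CPM in the acetate group, 10.6, 11.9 and 11.98 in the mtDNA group and 12.2, 14.3 and 12.01 in the combination group, far below its Prol libraries.

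Among the transporters, SLC7A11 rose with acetate, with 916, 951 and 928 CPM in the acetate group, 582, 521 and 604 in the mtDNA group and 1150, 996 and 1213 in the combination group. Its antisense neighbour SLC7A11-AS1, whose exons overlap it, rose by 1.11 with acetate, to 1.76, 2.62 and 1.83 CPM. If strand was not used, the reads of the pair cannot be told apart. SLC3A2 rose with mtDNA and fell with acetate, with 213, 213 and 203 CPM in the acetate group, 409, 441 and 408 in the mtDNA group and 249, 253 and 239 in the combination group. The heavy chain SLC3A2 and the light chain SLC7A11 thus moved in opposite directions with acetate. SLC7A5 measured 217, 211 and 210.2 CPM in the acetate group, 243, 267 and 246 in the mtDNA group and 253, 254 and 253 in the combination group. SLC1A5 measured 320.4, 308 and 314 CPM in the acetate group, 289.9, 294 and 275 in the mtDNA group and 336, 289.7 and 312 in the combination group. For SLC7A5 the mtDNA libraries overlapped the combination libraries, and for SLC1A5 the combination libraries overlapped those of both single treatments. SLC1A4 was highest with mtDNA alone, with 39.4, 37.0 and 37.1 CPM in the acetate group, 62.5, 59.4 and 55.8 in the mtDNA group and 47.9, 53.9 and 48.8 in the combination group. SLC7A1 stood at 119 ± 1.25 CPM with acetate, 135 ± 6.76 with mtDNA and 136 ± 5.11 with both. XPOT measured 402, 428 and 415 CPM in the acetate group, 447, 455 and 461 in the mtDNA group and 439, 357 and 436 in the combination group, with replicate 2 the low one. VLDLR measured 80.5, 82.9 and 81.8 CPM in the acetate group, 57.3, 59.4 and 57.2 in the mtDNA group and 81.7, 63.4 and 80.8 in the combination group, where replicate 2 was again low. STC2 stood at 1766 ± 89.7 CPM with acetate, 1912 ± 35.0 with mtDNA and 2220 ± 144 with both.

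The 2 by 2 layout tests whether the change with mtDNA differed between cells with and without acetate. In this interaction 19 of the 34 members were lower, that is, had a smaller log2 change with mtDNA when acetate was present, and 0 were higher, beside 0.583% of all tested genes lower and 0.0765% higher. The members' median was -0.38, against -0.02 for all tested genes. DESeq2 also called 0 members higher, and 1 was higher at an unadjusted p under 0.05 in edgeR. ASNS had the strongest interaction, at -0.99 (SE 0.0743, adjusted p = 1.63e-07): it changed by 1.27 with mtDNA alone and by 0.28 with mtDNA on top of acetate. PCK2 followed at -0.95 (SE 0.108, adjusted p = 5.42e-05), with 1.25 and 0.30, and TRIB3 at -0.83 (SE 0.0831, adjusted p = 1.03e-05), with 1.28 and 0.45. In linear CPM, mtDNA added 147 CPM of ASNS without acetate and 60.3 with it, while for CHAC1 the values were close, at 21.2 and 20.7 CPM. Taken with its sign, the CPM change with mtDNA was higher without acetate in 31 of the 34 members. SLC7A11 was among the others, at 60.7 CPM without acetate and 188 with it. By role, the calls covered 5 of 7 serine and folate enzymes (median -0.54), 5 of 11 regulators (-0.36), 4 of 7 other amino acid enzymes (-0.39), 4 of 6 transporters (-0.37) and VLDLR. ATF4 at -0.13, ATF5 at -0.13, PPP1R15A at -0.02 and SLC7A11 at 0.10 were among the 15 not called. With each of the 12 libraries left out in turn, 14 to 22 members were lower and 14 of the 19 kept their call every time. The count over all genes moved from 112 to between 55 and 403, and it was highest without combination replicate 2, where 22 members were lower.

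**Figure D5:**
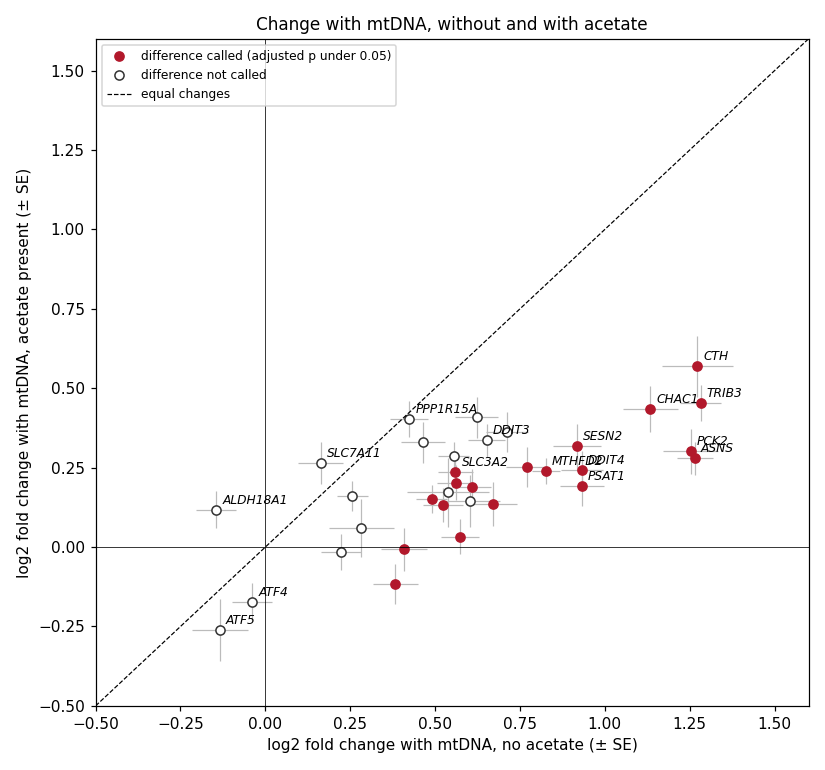
Log2 fold change with mtDNA for each member in cells without acetate (horizontal, mtDNA group minus Sen (IR) + CCCP) and with acetate (vertical, combination minus acetate group), with standard errors, red where the interaction has an adjusted p under 0.05. The red points all lie below the dashed line of equal changes, with ASNS, PCK2 and TRIB3 farthest from it.

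The rest of the pathway, read from lists of related genes, moved only in part with the members. Of 15 tested ATF4 targets outside the set (FGF21 of the 16 listed was too low to test), 10 rose and 1 fell after CCCP (median 0.55), 12 rose with acetate (median 0.51), 12 with mtDNA (median 0.47) and 14 with both. The shares of all tested genes that were higher in these comparisons were 34%, 28.8%, 10.7% and 30.3%, so the counts are not on 1 scale. ADM2, which encodes a secreted peptide, changed by 2.55 after CCCP and -0.85 in the interaction, and SLC6A9, a glycine transporter, by 2.08 and -0.77. GDF15, a secreted stress cytokine, changed by 0.84 after CCCP, 2.40 with acetate and 0.58 with mtDNA. ATF3, a transcriptional repressor, changed by 1.44, -0.13 (not called) and 0.76 in the same comparisons. Of the 20 cytosolic tRNA synthetases 12 rose and 5 fell after CCCP (median 0.24), and 12 rose with mtDNA (median 0.25), led by the tryptophan enzyme WARS at 0.97, beside 34% and 10.7% of all tested genes higher. Of 15 genes for eIF2 kinases, the eIF2 exchange factor and their relays, 4 rose and 6 fell after CCCP (median -0.12), beside 34% higher and 31.3% lower of all tested genes. The endoplasmic reticulum kinase EIF2AK3 changed by -0.82 and OMA1, the mitochondrial protease that relays stress to eIF2, by -0.77. With mtDNA 1 of these 15 fell, GCN1 at -0.23, and 1 rose, EIF2AK2, the RNA-activated kinase that interferon induces, at 2.19 (SE 0.117, adjusted p = 2.51e-11), and it changed by -0.03 with acetate, which was not called.

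The other arms of the unfolded protein response, which sense misfolding in the endoplasmic reticulum, went against the members after CCCP. Of 18 genes 15 fell and 1 rose (median -0.88), beside 31.3% of all tested genes lower and 34% higher. These include the chaperones HSP90B1 at -2.01 (SE 0.0963) and HSPA5 at -1.30 (SE 0.0961) and the factor XBP1 at -0.55 (SE 0.0720), while ERN1, the sensor that splices XBP1 RNA, rose by 0.39. With mtDNA 6 of the 18 rose, XBP1 among them at 0.79, and with acetate 9 rose and 4 fell, beside 10.7% of all tested genes higher with mtDNA and 28.8% higher and 28.3% lower with acetate.

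Several members share exonic bases with another gene, and the sources do not say whether these libraries are strand-specific (the methods describe counting by strand only for libraries that are). DDIT3 overlaps MARS1 and MBD6 on the opposite strand, which changed by 0.46 and 0.42 after CCCP, against 1.47 for DDIT3. Exons of ALDH1L2, MTHFD2, SHMT2, SLC1A5, SLC7A5, VLDLR and PYCR1 also overlap a gene on the opposite strand in GENCODE v44. Those of ASNS, NUPR1, ATF5, DDIT3 and PYCR1 overlap another gene on their own strand. Reads in the shared bases of these genes cannot be assigned with certainty. ATF4 (chr22:39519695-39522683, plus strand), CHAC1 (chr15:40952962-40956512, plus strand) and TRIB3 (chr20:362835-397559, plus strand), in GRCh38, have no such overlap.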

How the data were processed

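RNA-seq was measured in 18 libraries, 3 in each of 6 groups taken from the sample labels. Per the submitters' processing notes, the authors trimmed the reads (Trimmomatic 0.36), aligned them to GRCh38 (STAR 2.5.2b) and counted them per gene (featureCounts of Subread 1.5.2), and they deposited raw counts in 1 table and TPM values in another. The annotation version is not given in the sources used here. The methods describe counting by strand for strand-specific libraries without saying whether these libraries are. Of the 57500 genes, 485 had no symbol. All columns of both tables were assigned to a sample.

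The counts were tested with edgeR 4.0.16 in R 4.3.3, in 1 quasi-likelihood fit over the 18 libraries with TMM scaling, a mean per group and the package's filter on low counts, which left 16994 genes (common biological coefficient of variation 0.0644). Calls use Benjamini-Hochberg adjusted p under 0.05 over all tested genes, and SE is the standard error of the log2 fold change. The interaction is the change with mtDNA under acetate minus that without it. CPM values are counts scaled to a common library total with TMM factors, and TPM values are as deposited. The scripts were tested on simulated data.

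The members and the related gene lists were chosen with earlier results of these data known. Values in every library are given for members called with CCCP in senescent cells at a log2 change of 1 or more in either direction, and for ATF4, ATF5, DDIT3, ASNS, TRIB3 and CHAC1. The 3 largest rises and falls are named in each comparison. The summary of the cytosolic folate enzymes as a list is not reported here. Depth was 24624886 to 46224280 counts per library, and precision is lowest for the members with the fewest counts, CBS and CTH. The alternatives were DESeq2 1.42.0 and its size factors, other filters on low counts, removal of mtDNA-encoded genes before scaling, fits of the compared groups alone, a replicate block, and each library left out in turn. Leaving out both libraries that stood apart was chosen after seeing the data. Promoter windows were read from a RefSeq table (GRCh38.p14), and gene positions from GENCODE v44 on GRCh38. Figures were drawn with matplotlib 3.10.9.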

Additional observations from a re-analysis of the deposited data

Results flagged for a closer look

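In 19 members the change with mtDNA differed between cells with and without acetate, by the interaction term of the edgeR fit at an adjusted p under 0.05 over all tested genes, and in each the log2 change was smaller with acetate. Among the enzymes of amino acid synthesis the interaction was -0.99 for ASNS, -0.95 for PCK2, -0.70 for CTH and -0.39 for GPT2. Among serine and folate enzymes it was -0.74 for PSAT1, -0.59 for MTHFD2, -0.54 for PHGDH, -0.54 for PSPH and -0.34 for SHMT2. Among regulators it was -0.83 for TRIB3, -0.70 for CHAC1, -0.69 for DDIT4, -0.60 for SESN2 and -0.36 for NUPR1. Among transporters it was -0.52 for SLC7A5, -0.42 for SLC7A1, -0.42 for SLC1A5 and -0.32 for SLC3A2, and it was -0.50 for VLDLR.

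SLC1A5 and VLDLR were not called with mtDNA in the presence of acetate, at -0.01 and -0.12, and rose with mtDNA in its absence, at 0.41 and 0.38. With each of the 12 libraries left out in turn, the interaction call was lost in 11 fits for SLC3A2, in 10 each for NUPR1 and SLC1A5, and in 4 each for GPT2 and CTH. Their highest adjusted p-values in edgeR were 0.133, 0.0999, 0.125, 0.0696 and 0.0717.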

How the results depend on the processing

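No member's log2 fold change reversed under the alternatives in a comparison that was called. The other normalizations tested moved the median of all genes by at most 0.03 on the log2 scale. TPM was not among them, and on it some calls point the other way. ASNS, called lower in Sen (IR) + CCCP than in Prol, had a mean of 98.3 TPM in Prol and 126 in Sen (IR) + CCCP. GPT2, called lower in Sen (IR) + CCCP than in Sen (IR), had 15.9 and 13.5 TPM in these groups. Others kept their direction, such as PYCR1 at 57.7 TPM in Prol and 17.6 in Sen (IR) + CCCP. With DESeq2's size factors in edgeR and with the DESeq2 Wald test the members' medians moved to 0.66 for the combination against Sen (IR) + CCCP, 0.25 against acetate, 0.17 against mtDNA and -0.35 for the interaction. DESeq2 calls at an unadjusted p under 0.05 with a log2 fold change over 0.5 in either direction left 3 members higher in Sen (IR) against Prol, 7 lower in Sen (IR) + CCCP against Prol, 15 higher with acetate, 1 lower in the combination against Sen (IR) + CCCP (ATF5), 1 higher against acetate, 5 higher and 3 lower against mtDNA, and 11 lower in the interaction, with the DESeq2 medians just given. Fits of only the groups compared gave medians of -0.75 for Sen (IR) against Prol and 0.16 for the combination against mtDNA, and 1 member, ALDH18A1, lower with mtDNA. A floor of 10 counts in every library gave a median of 0.55 with mtDNA and 1 member lower in the combination against acetate (ATF4), and no filter gave 2 (ATF4 and ATF5). Without both libraries that stood apart, an alternative chosen after seeing the data, 1 member was lower with mtDNA (ALDH18A1), 24 were lower in the interaction, and the medians were 1.14 for Sen (IR) + CCCP against Sen (IR) and 0.12 for the combination against mtDNA.

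With each library left out in turn, the members' medians ranged from 1.14 to 1.24 for Sen (IR) + CCCP against Sen (IR), 0.14 to 0.23 against Prol, 0.44 to 0.51 with acetate, 0.57 to 0.59 with mtDNA, 0.65 to 0.69 in the combination against Sen (IR) + CCCP, 0.14 to 0.18 against mtDNA, and -0.40 to -0.36 for the interaction. The lower members ranged from 0 to 2 in the combination against acetate and from 6 to 10 against mtDNA. Over all genes, the interaction called 112 in the main design, 272 by DESeq2, 413 without a filter, 553 by the unadjusted rule, 820 without both libraries that stood apart, 403 without combination replicate 2 alone, and 55 to 73 without replicate 2 or 3 of Sen (IR) + CCCP, any acetate library, or replicate 1 or 3 of mtDNA. The combination against acetate called 2136 genes, 1221 by the unadjusted rule, and 1241 and 1296 without acetate replicate 2 or 3. The unadjusted rule left 5221 of 9628 genes in Sen (IR) against Prol, 7015 of 11088 in Sen (IR) + CCCP against Sen (IR), 5287 of 9709 with acetate, 1622 of 3071 with mtDNA, 6138 of 10487 in the combination against Sen (IR) + CCCP and 5478 of 9748 against mtDNA.

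Groups share replicate numbers but nothing says that a number marks a shared culture. Deviations from the group means correlated between -0.17 and 0.15 over the 45 pairs of same-numbered libraries, and in 0 of the 15 pairs of groups were all 3 over 0.1, so the numbers were not taken as pairs. With the replicate block 26 members were higher with acetate, 22 were higher in the combination against acetate and 19 were lower in the interaction (123 genes in all). In the main fit these counts were 25, 21 and 19, beside 28.8% and 6.57% of all tested genes higher and 0.583% lower. Depth limits the members at the lowest levels, CBS and CTH, and the small changes of the others.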
